A study of Mus musculus with 4 samples.

Results

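The aryl hydrocarbon receptor (AhR) pathway was followed through 6 regulators, *Ahr*, *Ahrr*, *Arnt*, *Tiparp*, *Nfe2l2* and *Nqo1*, in sorted intestinal and splenic CD8αβ+ T cells. Every probe of the array that is not a control and carries one of these gene names was taken, which gave 11 probes of 41174 on the array, where 27376 gene names are listed. Total RNA was compared between CD8αβ+ intraepithelial lymphocytes (IELs) of the small intestine and CD8αβ+ splenocytes (SPLs), both purified by cell sorting, with 2 samples in each group. All samples came from wild-type male mice for which no treatment is named, aged 8 to 12 weeks per the labels, which the methods place on a C57BL/6 background. Several mice were pooled for each sample, and the sort took CD45+ CD3+ CD8α+ CD8β+ TCRβ+ cells. An Agilent whole genome array with a single dye was used per sample, and the comparison asks how the transcripts of resident CD8αβ+ T cells of the gut differ from those of the spleen.

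AhR is a transcription factor that small aromatic ligands activate, among them compounds from food and from the breakdown of tryptophan by gut bacteria. Held in the cytoplasm by chaperones, it enters the nucleus after ligand binding, pairs with ARNT and binds xenobiotic response elements, whose core is GCGTG. Genes induced in this way include those for cytochrome P450 enzymes and for proteins that restrain the receptor. AHRR competes for ARNT and for the binding sites, and TIPARP modifies the receptor with ADP-ribose. NRF2, encoded by *Nfe2l2*, is the main activator of antioxidant genes and is itself a known target of AhR, and *Nqo1*, the gene for a quinone reductase, is controlled by both factors. In the mouse gut, AhR is known for the maintenance of intraepithelial lymphocyte subsets, γδ T cells among them, and of group 3 innate lymphoid cells.

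The promoters of the negative regulators are shown because both genes are known targets of AhR. Each sequence holds the 250 bases before the start site, read from 5′ to 3′ on the strand of the gene, from the RefSeq genes of GRCm38.p6, in which 5 of the 6 genes were matched. *Ahr* had no entry there, so its promoter was not searched. Capitals mark GCGTG, or CACGC where the core lies on the other strand.

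Ahrr, chr13:74292332-74292581, minus strand: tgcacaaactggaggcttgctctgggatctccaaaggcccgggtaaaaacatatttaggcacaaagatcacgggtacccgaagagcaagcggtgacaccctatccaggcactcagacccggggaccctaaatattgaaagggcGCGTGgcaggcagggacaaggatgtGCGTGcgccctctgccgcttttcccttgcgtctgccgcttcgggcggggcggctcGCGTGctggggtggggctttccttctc

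Tiparp, chr3:65528197-65528446, plus strand: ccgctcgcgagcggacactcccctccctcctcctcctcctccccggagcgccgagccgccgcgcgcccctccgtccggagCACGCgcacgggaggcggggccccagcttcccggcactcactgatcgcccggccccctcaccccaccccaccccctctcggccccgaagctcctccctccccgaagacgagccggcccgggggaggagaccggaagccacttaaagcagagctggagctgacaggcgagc

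The *Ahrr* promoter held GCGTG 3 times, with the first base of the nearest matches 82 and 27 bases before the start site. The *Tiparp* promoter held it 1 time, on the other strand and 170 bases before the start site, and the *Arnt* promoter 1 time, 29 bases before it. No match lay in the windows of *Nfe2l2* and *Nqo1*. On either strand, 28.2% of 32851 mouse promoters of the same length held GCGTG at least 1 time and 2.77% held it 3 or more times. The antioxidant response element core TGACNNNGC was found 2 times for *Arnt*, 127 bases (other strand) and 50 bases before the start site, and 1 time for *Nfe2l2*, 240 bases before it, against 10.2% of all promoters with a match. These matches describe the sequence and no binding was measured.

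The arrays themselves differed in ways that touch every result. Slide 1 held IEL replicate 1 beside SPL replicate 2, while slide 2 held IEL replicate 2 beside SPL replicate 1. Across 27911 tested probes, IEL replicate 1 had Pearson correlations of 0.911 to 0.946 with the other 3 arrays, which had correlations of 0.973 to 0.992 among themselves, the highest between IEL replicate 2 and SPL replicate 1. IEL replicate 1 thus stood apart. IEL replicate 2 correlated better with SPL replicates 1 and 2 (0.992 and 0.973) than with IEL replicate 1 (0.946). The difference between groups is given within each slide as well as over all arrays. The 10 CD8 T cell markers had summed levels of 9.44 and 9.56 in IELs and 9.56 and 9.53 in SPLs on the log2 scale. Such a sum follows its brightest genes, and single markers differed by -1.13 (*Cd2*) to 0.52 (*Cd3g*), with both IEL arrays above both SPL arrays in 4 and below them in 4. Markers of intestinal epithelium and Paneth cells were also present, and their values are given with the results.

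*Ahr*, the receptor itself, had the highest level on IEL replicate 1, a lower one on IEL replicate 2 and the lowest ones on both SPL arrays. Its probe, which covers chr12:36182924-36182983 of mm9 on the minus strand, read 2323 and 728 intensity units in IELs, against 332 and 322 units in SPLs. It was well above background on all arrays, and it is printed on 10 spots, of which the 8 or 9 kept on each array had a coefficient of variation between 1.54% and 2.62%. Levels were scaled to the 75th percentile of each array and put on the log2 scale, on which *Ahr* stood at 2.90 and 0.74 in IELs and at -0.53 and -0.91 in SPLs. Both IEL arrays thus lay above both SPL arrays, although the IEL arrays were 2.15 log2 units apart and the SPL arrays 0.38. The mean level was 1.82 ± 1.52 in IELs and -0.72 ± 0.27 in SPLs (SD, n = 2 each). The difference of IELs over SPLs was 2.54 ± 0.77 (SE) on the log2 scale, a 5.82-fold higher level, with a 95% interval from 0.46 to 4.62.

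The size of the *Ahr* difference depended on the slide, since IELs exceeded SPLs by 3.81 log2 units on slide 1 and by 1.28 (2.42-fold) on slide 2. By limma, which was fitted over all tested probes, *Ahr* had an unadjusted p of 0.0267 and a Benjamini-Hochberg adjusted p of 0.634, so the difference did not pass the threshold of 0.05. A log2 difference as high was found in 1.12% of tested probes. Without IEL replicate 2 the difference was 3.62, with an adjusted p of 0.00542 by limma in a fit where the lone IEL array is assumed to vary like the SPL arrays. Without IEL replicate 1 it was 1.46. For a single probe, an exact two-sided permutation test of 2 against 2 arrays cannot give a p below 0.333, the value it gave for *Ahr*.

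*Ahrr*, the repressor that AhR induces, had the same order of arrays as *Ahr* and the widest range of the 6 genes. Its probe at chr13:74348566-74348612 (mm9, minus strand) read 773 and 459 units in IELs, 175 units on SPL replicate 1 and 3.92 units on SPL replicate 2. The last of these was not well above background, whereas the probe was well above background on the other 3 arrays. The levels were 1.31 and 0.08 in IELs and -1.45 and -7.27 in SPLs. Both IEL arrays lay above both SPL arrays, and SPL replicate 2 was far below the rest.

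The fitted *Ahrr* difference, which is no bound, was 5.06 ± 2.03 (SE) on the log2 scale, with a 95% interval from -0.40 to 10.5 and a limma adjusted p of 0.634. On slide 2, where both arrays measured it, *Ahrr* was 2.89-fold higher in IELs, a log2 difference of 1.53. On slide 1 the SPL array gives only a bound, and with its value set at the lowest signal among probes well above background (7.42 units) the level was at least 202-fold higher in IELs. The mean over both slides was at least 24.2-fold higher by the same floor. That floor lay above the median of the negative controls on SPL replicate 2 (1.69 units) and below their mean (20.6 units). Both bounds hold only for this floor and this background subtraction. SPL replicate 2 decided the size of the fitted difference, because without this array the log2 difference was 2.15. The background correction moved the difference too. Normexp with an offset of 50 gave 1.33, and normexp without spots far below their local background gave 2.92.

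*Tiparp*, the ADP-ribosyltransferase that acts on AhR, was bright on all arrays, and its groups overlapped. The probe at chr3:65358749-65358808 (mm9, plus strand) read 8563 and 4937 units in IELs and 3869 and 7780 units in SPLs. Levels were 4.78 and 3.51 in IELs against 3.01 and 3.69 in SPLs, so SPL replicate 2 stood above IEL replicate 2. The log2 difference was 0.79 ± 0.54 (SE), or 1.73-fold, with a 95% interval from -0.65 to 2.24 and an adjusted p of 0.636 by limma. It was positive on each slide, at 1.09 on slide 1 and 0.49 on slide 2. Without IEL replicate 1 it was 0.16 and without IEL replicate 2 it was 1.43.

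**Figure D1:**
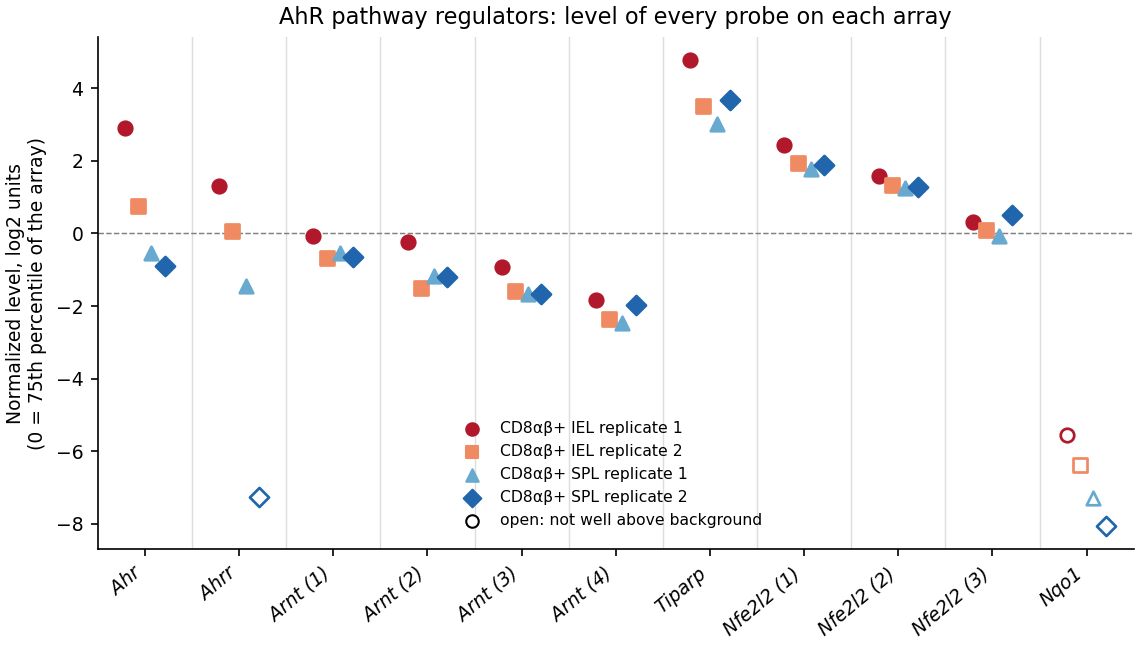
Normalized log2 level (vertical axis, 0 at the 75th percentile of the array) of all 11 probes, with 1 point per array and open points where a probe was not well above background. *Ahr* and *Ahrr* have both IEL points above both SPL points, and *Nqo1* is open on every array. *Arnt* and *Nfe2l2* points lie closer together, except for the second *Arnt* probe, at -0.22 and -1.49 in IELs. Heights of different probes cannot be set against each other.

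*Arnt*, the partner that AhR needs to bind DNA, had 4 probes on chr3 (mm9, plus strand), and their levels were close between the groups. The brightest, at chr3:95300932-95300991, read 295 and 275 units in IELs and 333 and 389 units in SPLs, which became levels of -0.08 and -0.66 in IELs and -0.53 and -0.64 in SPLs after scaling. IEL replicate 1 was the highest array, and IEL replicate 2 was the lowest. The log2 difference was 0.21 ± 0.30 (SE), with a 95% interval from -0.60 to 1.02 and a limma adjusted p of 0.784. Slide 1 gave 0.56 and slide 2 gave -0.14. The other 3 probes differed by 0.32 (0.96 on slide 1 and -0.32 on slide 2), 0.41 and 0.12. Both IEL arrays lay above both SPL arrays for only 1 of the 4, the probe with the difference of 0.41 (1.33-fold). Under normexp with an offset of 50, all 4 probes had a difference below 0, the brightest at -0.0087, where the median of all tested probes was -0.38.

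*Nfe2l2*, the gene for NRF2, had 3 probes on chr2 (mm9, minus strand). The brightest, at chr2:75513771-75513830, read 1679 and 1672 units in IELs and 1649 and 2243 units in SPLs. Its scaled levels were 2.43 and 1.94 in IELs and 1.78 and 1.89 in SPLs, with both IEL arrays just above both SPL arrays. The log2 difference was 0.35 ± 0.28 (SE), 1.27-fold, with a 95% interval from -0.40 to 1.1 and a limma adjusted p of 0.658. The probe at chr2:75513917-75513976, which was designed for the same transcript, differed by 0.19, also without overlap of the groups. The third probe, at chr2:75529947-75530006, which the array assigns to another transcript, differed by -0.03 and its groups overlapped, so the probes of *Nfe2l2* did not share a direction.

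*Nqo1*, the quinone reductase gene that AhR and NRF2 can both induce, stayed near background throughout. Its probe at chr8:109912440-109912499 (mm9, minus strand) read 6.68 and 5.25 units in IELs and 3.06 and 2.26 units in SPLs, on no array well above background, so it was not tested and no fold is given. A level this low was not detectable by this probe, which does not show that the transcript was absent.

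Of the 11 probes, 10 probes of 5 genes were tested. Both IEL arrays lay above both SPL arrays in 5 of the 10, against 24.4% of all 27911 tested probes, and in 0 of the 10 did both lie below, against 24.6%. The 5 probes stand for 4 genes, because 2 of them belong to *Nfe2l2*, so they are not independent. A level at least 2-fold higher in IELs on both slides was found for 2 of the 10, *Ahr* and *Ahrr*, against 1.79% of tested probes (501), and a level at least 2-fold lower for 0, against 0.312% (87). By limma, 0 of the 10 probes had an adjusted p under 0.05, as had 0% of tested probes in either direction, while *Ahr* was the 1 probe with an unadjusted p under 0.05, against 4.63% of tested probes that were higher (1293) and 1.1% that were lower (307). With 1 probe per gene, the median log2 difference of the 5 genes was 0.79, and that of all tested probes was -0.00072. On slide 1 the median of the 5 genes was 1.09 and on slide 2 it was 0.49.

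**Figure D2:**
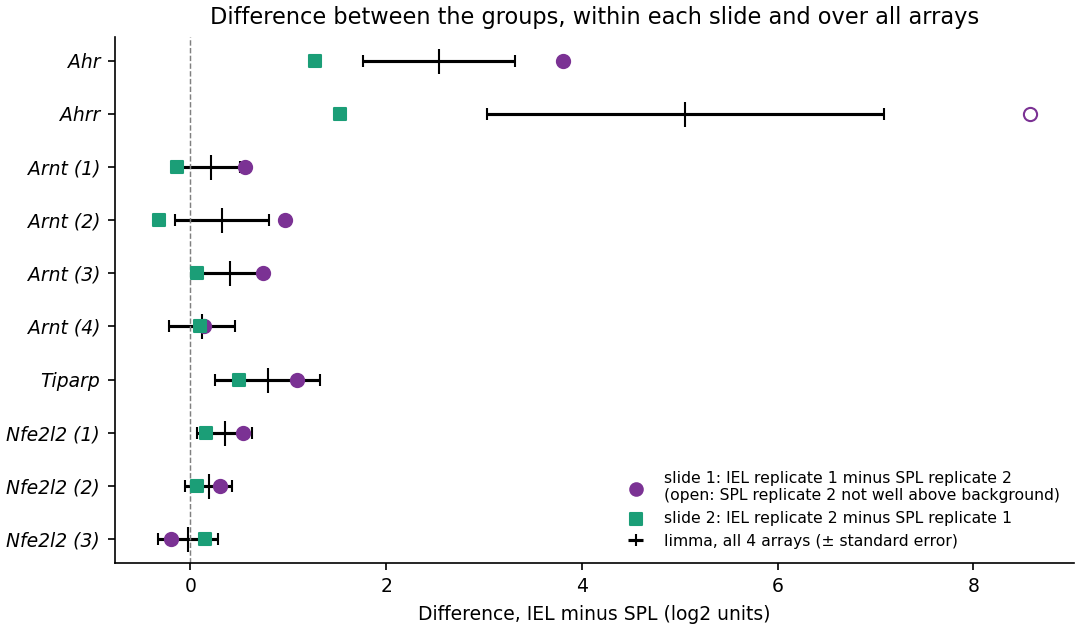
Difference of IELs minus SPLs in log2 units (horizontal axis) for the 10 tested probes, within slide 1 (circles), within slide 2 (squares) and over all arrays by limma (black, with the standard error). *Ahr* and *Ahrr* lie above 1 on both slides, and the open circle of *Ahrr* rests on an SPL array that was not well above background.

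Other genes of the pathway were described by list. Of 11 chaperones and partners of AhR, 10 were tested and 0 passed the threshold in either direction by limma (0 at an unadjusted p under 0.05). The median log2 difference was 0.18, against -0.00072 for all tested probes. Of the 10 genes, 9 were above 0, among them *Hsp90aa1* (0.01), *Ptges3* (0.02) and *Arntl* (0.09) by less than their standard errors. Both IEL arrays lay above both SPL arrays in 4, against 24.4% of all tested probes. The highest values were for *Nrip1*, a corepressor of nuclear receptors, at 1.77, and for *Ncoa2*, a coactivator, at 1.17. The lowest were for the chaperones *Hsp90ab1*, at -0.09 ± 0.23 (SE), and *Hsp90aa1*, at 0.01 ± 0.39 (SE). *Nrip1* followed the slides as *Ahr* did, with 2.85 on slide 1 and 0.69 on slide 2. *Arnt2*, a relative of *Arnt*, was well above background on 0 of 4 arrays.

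The enzyme genes that AhR classically induces were mostly below detection. *Cyp1a1*, *Cyp1a2*, *Cyp1b1* and *Aldh3a1* were well above background on 0 of 4 arrays, and the array had no probe named *Ugt1a6a*. *Gsta1*, a glutathione transferase gene, was the 1 of 6 enzymes tested, and its levels were -3.01 and -4.73 in IELs and -5.93 and -7.27 in SPLs. Both IEL arrays were higher, with a log2 difference of 2.73 ± 0.77 (SE) and a limma adjusted p of 0.634, which was 4.26 on slide 1 and 1.20 on slide 2. It was well above background on 3 arrays only, and under normexp with an offset of 50 the difference was -0.81.

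In the control of NRF2, all 10 genes were tested and 0 passed the threshold by limma (0 at an unadjusted p under 0.05). Their median log2 difference was 0.18, against -0.00072 for all tested probes, with 7 of 10 above 0. *Sqstm1*, which encodes a scaffold that binds KEAP1, was at 0.73, and *Maff*, which encodes a small Maf protein that pairs with NRF2, was at 0.67. *Keap1*, which encodes the adaptor that marks NRF2 for degradation, was at 0.18 ± 0.24 (SE). *Bach2*, which encodes a repressor at Maf recognition sites, was the lowest, at -1.90 ± 0.96 (SE), with levels of 0.74 and 3.46 in IELs and 3.84 and 4.16 in SPLs. Both IEL arrays were lower, but the log2 difference was -3.42 on slide 1 and -0.38 on slide 2. *Rbx1*, of the same ubiquitin ligase as KEAP1, was at -0.35.

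Of 17 target genes of NRF2, 16 were tested and 0 passed the threshold by limma (1 at an unadjusted p under 0.05). The median was 0.03, with 9 of 16 above 0, and both IEL arrays were above both SPL arrays in 4 genes and below them in 4, near the shares of 24.4% and 24.6% of all tested probes. *Srxn1*, the sulfiredoxin gene, was the highest at 2.15 ± 0.69 (SE), with 3.35 on slide 1 and 0.94 on slide 2, followed by *Me1*, for malic enzyme, at 0.72. *Slc7a11*, for the cystine transporter, had the lowest fitted value, -1.80, with -3.17 on slide 1 and -0.44 on slide 2, but was not well above background on IEL replicate 1. It was followed by *Cat*, for catalase, at -0.63. *Hmox1*, for heme oxygenase, differed by 0.03 ± 0.32 (SE). The *Srxn1* difference was -0.0095 under normexp with an offset of 50. Without IEL replicate 2, the log2 difference rose to 2.75 for *Nrip1*, 1.84 for *Ncoa2*, 3.59 for *Gsta1*, 1.32 for *Sqstm1* and 3.07 for *Srxn1*. It fell to -3.26 for *Bach2*, -1.03 for *Cat* and -2.77 for *Slc7a11*. *Hsp90ab1*, at -0.02, moved toward 0, and *Hmox1* turned to -0.23. These values rest on IEL replicate 1 as the lone IEL array, on which *Slc7a11* was not well above background.

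**Figure D3:**
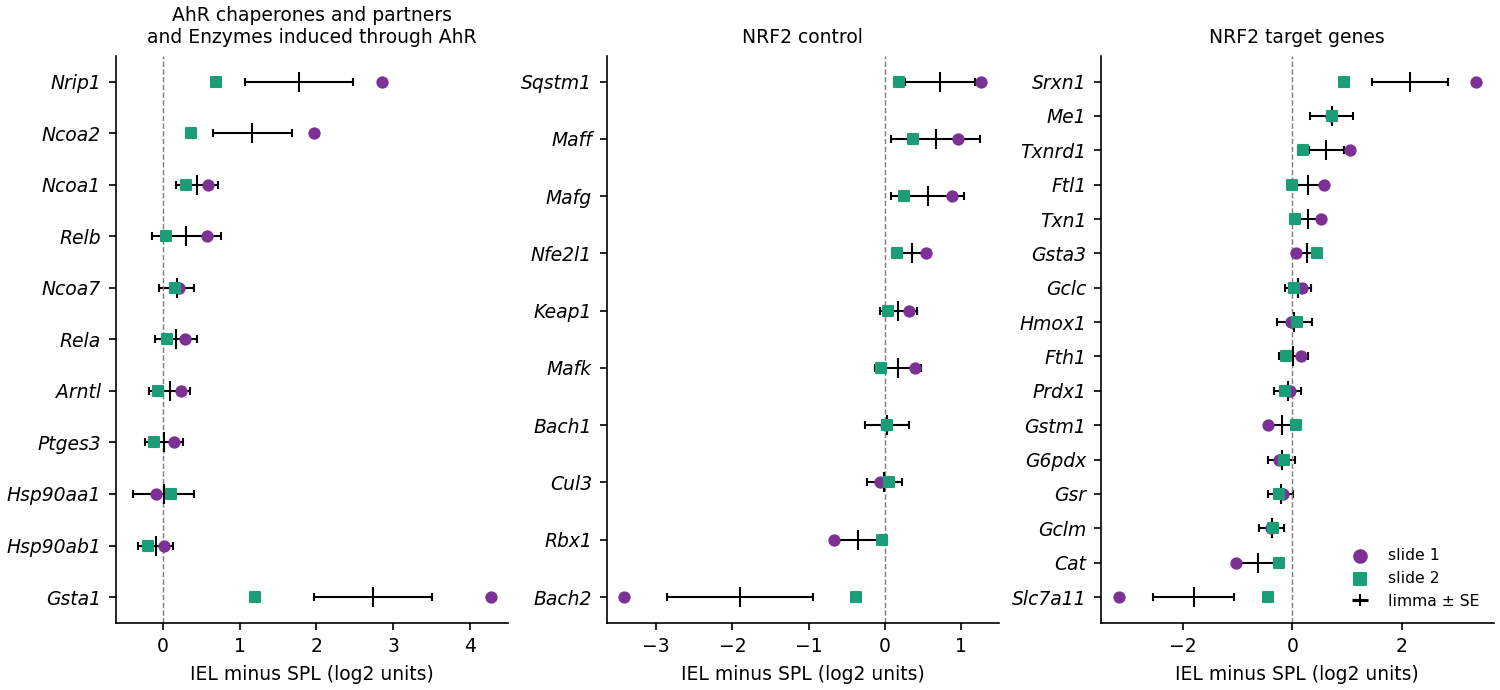
Difference of IELs minus SPLs in log2 units (horizontal axes) for each tested gene of the AhR chaperones, partners and enzymes (left), the control of NRF2 (middle) and the targets of NRF2 (right), with slide 1 as circles, slide 2 as squares and the limma value with its standard error in black. *Gsta1*, *Nrip1* and *Srxn1* lie highest and *Bach2* and *Slc7a11* lowest, each farther from 0 on slide 1 than on slide 2.

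Markers of other cells moved with the same arrays. All 12 epithelial markers of the list were tested, and both IEL arrays lay above both SPL arrays in 12 of 12, against 24.4% of all tested probes. Their median log2 difference was 3.21, with 4.96 on slide 1 and 1.28 on slide 2, next to 3.81 and 1.28 for *Ahr*. The summed epithelial level was 5.15 and 3.12 in IELs and 2.23 and 1.34 in SPLs. For 6 tested Paneth cell genes it was 8.44 and 3.27 in IELs and 2.81 and 2.37 in SPLs. On the SPL arrays this sum followed *Lyz1*, at 2.30 and 2.35. Every other tested Paneth cell gene was lower on SPL replicate 2 than on SPL replicate 1, such as *Defa20* at -4.66 against 0.42. The array had probes for 6 of the 9 Paneth cell genes listed. All 6, like all 12 epithelial genes, passed the filter for testing. The part of epithelial and Paneth cell RNA in the values of *Ahr*, *Ahrr* and *Gsta1* was not tested. In bulk RNA, fewer cells of a type and less RNA per cell cannot be told apart.

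Neutrophil and erythroid markers ran the opposite way. The summed level was -2.19 and 5.16 in IELs against 5.47 and 5.64 in SPLs for 6 neutrophil genes, and 0.25 and 6.25 against 6.65 and 6.87 for 7 erythroid genes. B cell genes gave 1.85 and 4.35 in IELs against 4.70 and 4.31 in SPLs, and macrophage and dendritic cell genes 3.30 and 3.81 against 3.99 and 2.74. On IEL replicate 1 the latter sum followed *Itgax*, at 3.12. The median log2 difference of these 10 macrophage and dendritic cell genes was -1.67 (-3.03 on slide 1 and -0.31 on slide 2), with 3 above 0. Of 9 genes listed for group 3 innate lymphoid and γδ T cells, both of which need AhR in the gut, 3 were tested. *Il22*, a cytokine gene, was at 2.80 (4.97 on slide 1 and 0.63 on slide 2), *Kit* at 2.16 (3.29 and 1.04) and *Ncr1* at -1.72 (-2.90 and -0.54), while *Il23r*, *Il17a*, *Sox13* and *Il1r1* were well above background on 0 of 4 arrays. None of the 3 passed the threshold, with a limma adjusted p of 0.634 for each, and *Il22* and *Ncr1* were well above background on 3 arrays only. The sort gated CD3+ CD8β+ TCRβ+ cells, and the part of both cell types in the *Ahr* level was not tested.

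**Figure D4:**
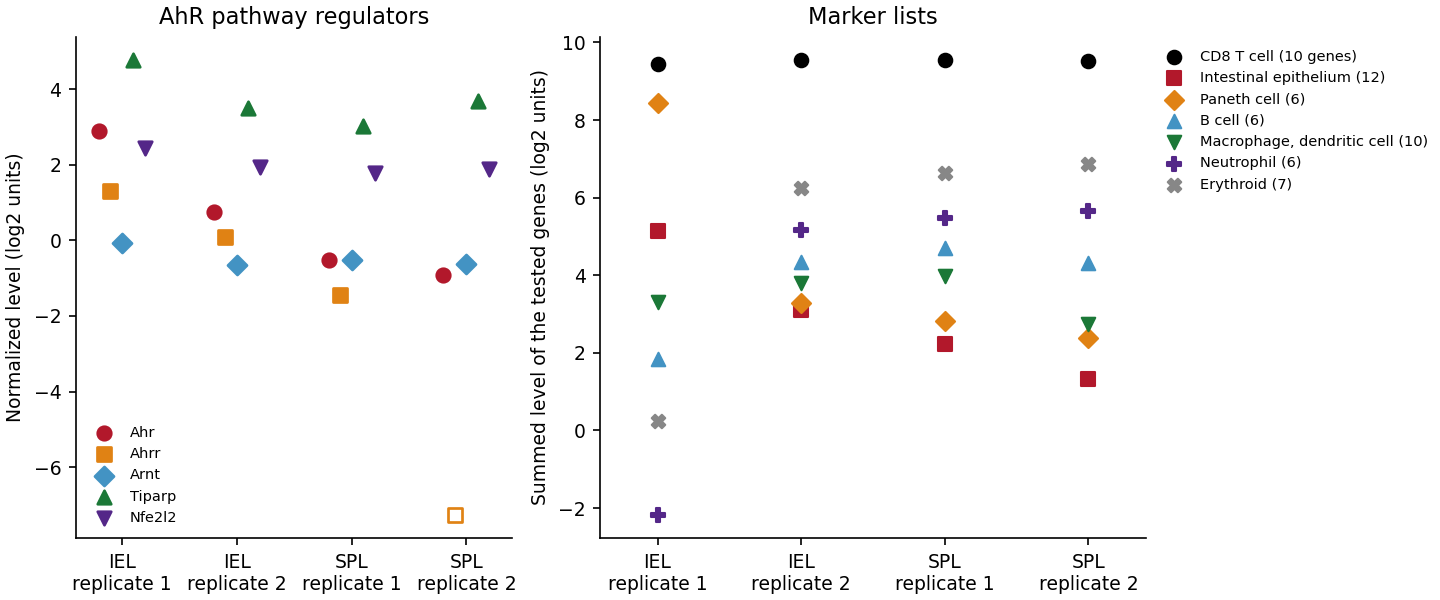
Left, normalized log2 level of the brightest probe of 5 regulators on each array (the open square is *Ahrr* below background). Right, summed level of the tested genes of 7 marker lists, also in log2 units. IEL replicate 1 has the highest *Ahr* level, 2.90, as well as the highest epithelial and Paneth cell sums, 5.15 and 8.44, and the CD8 T cell sum stays between 9.44 and 9.56.

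To find genes with a like pattern, profiles over the 4 arrays were centered on their own mean and compared with 13664 other genes by the root mean square difference. The nearest to *Ahr* were *Vil1*, an epithelial actin-binding protein gene that is also in the epithelial list, at 0.089 log2 units, *Plcxd1* at 0.092 and *Ctla4*, an inhibitory receptor gene of T cells, at 0.10. The levels of *Vil1* were -0.25 and -2.41 in IELs and -3.67 and -4.26 in SPLs, whereas those of *Ctla4* were 1.48 and -0.62 in IELs and -1.69 and -2.14 in SPLs. *Ahrr* was nearest to *B3galt5*, a galactosyltransferase gene, at 0.11, *Ppp2r2c*, a phosphatase subunit gene, at 0.24 and *Gzmb*, the granzyme B gene of cytotoxic lymphocytes, at 0.26. These distances use the level of *Ahrr* on SPL replicate 2, which was not well above background and is only a bound, so neither they nor their order are exact. For *Tiparp* they were *Clstn2* at 0.034, *Esyt3* at 0.036 and *Gramd1c* at 0.037. *Arnt* and *Nfe2l2* ranged over 0.58 and 0.65 log2 units, under the 1 unit needed for such a search. The 4 points of each profile share slides and pools, so these values describe the arrays alone.

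**Figure D5:**
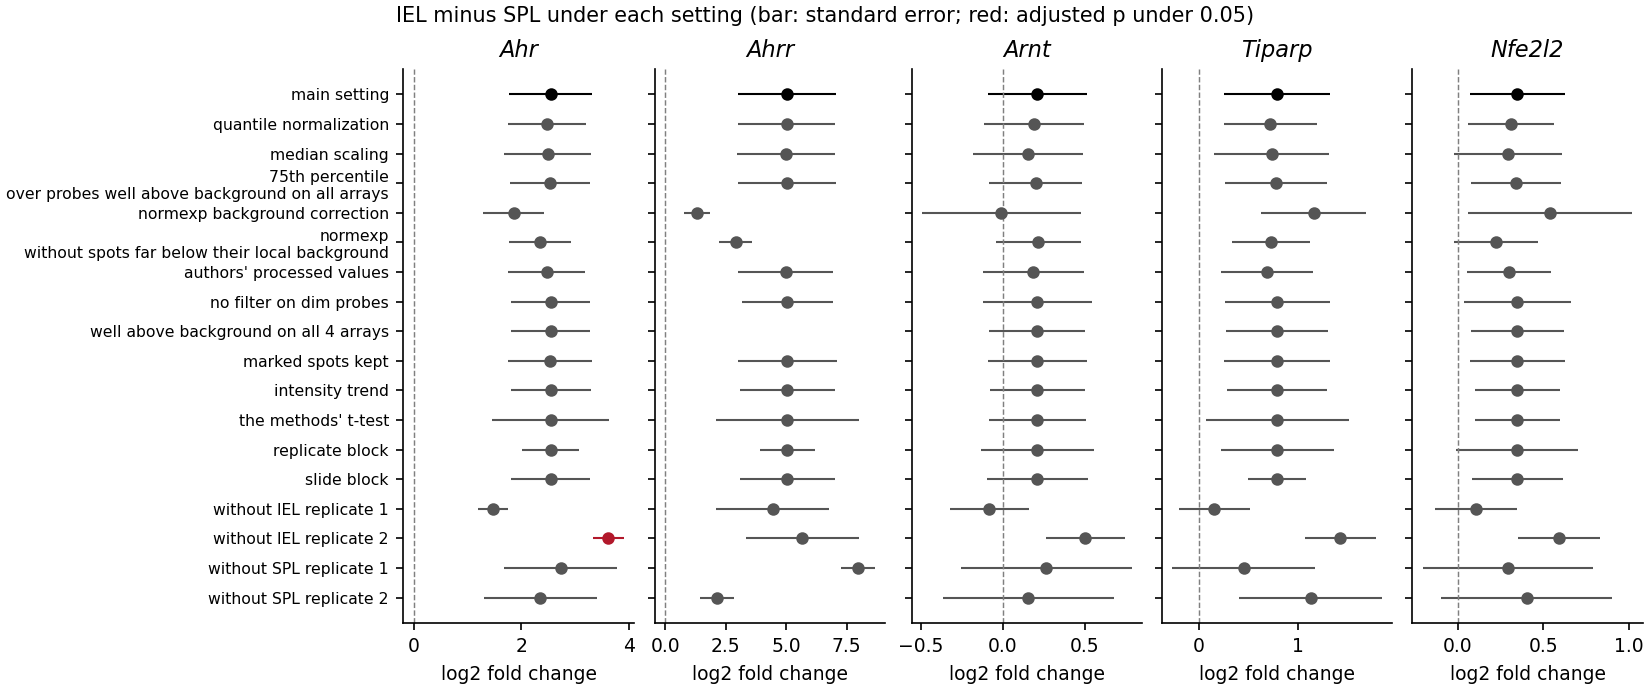
Difference of IELs minus SPLs in log2 units with its standard error (horizontal axes, a scale for each gene) for the brightest probe of the 5 tested genes, in the setting used throughout and in each alternative (rows). *Ahr* stays above 0 in every row, between 1.46 and 3.62, and the red point, without IEL replicate 2, is the 1 value past the threshold.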

How the data were processed

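RNA of sorted CD8αβ+ IELs and CD8αβ+ SPLs (2 samples each) was measured on 4 Agilent 1-color arrays of 45018 spots, while the paper's methods name PrimeView chips. Per the file headers, Feature Extraction 10.7.3.1 gave each spot a background-subtracted intensity, not scaled between arrays (the submitters' processing notes name version 10.7.1.1). A further table deposited by the authors holds log2 values, whose equal extremes of 0.53 and 18.84 on every array fit a quantile normalization. It served as an alternative. Its columns had medians of 5.59, 5.57, 5.57 and 5.58, and the rank correlation with the scanner values rounded to 1.

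The log2 intensity was scaled by the 75th percentile of each array (312 and 435 units for IELs, 479 and 605 for SPLs). Spots with an outlier mark were left out (98 to 179 per array), 0 spots were saturated, and spots of a probe were averaged. Between 63.6% and 69.6% of probes were well above background on an array. A probe was tested if all arrays of either group had it well above background. The test was that of limma (version 3.58.1, R 4.3.3), with files read by data.table (version 1.17.8), on 2 residual degrees of freedom, without a block, with Benjamini-Hochberg adjustment. Per the paper, each sample was sorted from 10 mice, and p-values measure the spread between these samples. The number of arrays limits the precision. The model was tested on simulated data.

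For a gene with several tested probes, the brightest on average stands for it. Named genes are all 6 regulators, up to 3 of the highest and lowest of each pathway list (2 are given), *Cyp1a1*, *Cyp1b1*, *Keap1* and *Hmox1*, and the 3 genes nearest in pattern. Of 2 lists, 1 gene each is not reported here and is left out of the counts. The regulators and lists were chosen with earlier results of these data known. Summed levels are log2 of summed scaled intensities over the tested genes of a list. Probe names and mm9 positions are those of the arrays' annotation. The alternatives changed the scaling, background correction, filter, marked spots, values, variance model, test, block and samples.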

Additional observations from a re-analysis of the deposited data

How the results depend on the processing

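For the 10 tested probes of the regulators, 158 of 169 values over 17 alternatives kept their direction and their side of the threshold, 10 turned and 1 newly passed it. That 1 was *Ahr* without IEL replicate 2, at 3.62, a fit in which 2382 probes of the array were higher and 3059 lower at an adjusted p under 0.05 by limma. In every other alternative 0 probes passed in either direction, so these counts ranged from 0 to 2382 and from 0 to 3059 as single samples were left out. In alternatives that changed only the filter, variance model, test or block, the difference stays the same by construction and its direction could not turn. The count of 158 includes these values. With single samples left out, differences ranged from 1.46 to 3.62 for *Ahr*, from 2.15 upward for *Ahrr* (SPL replicate 2 gives only a bound), from 0.16 to 1.43 for *Tiparp*, from 0.11 to 0.59 for *Nfe2l2* and from -0.081 to 0.50 for *Arnt*. The other *Arnt* probes ranged from -0.31 to 0.96, 0.08 to 0.74 and -0.15 to 0.39, the third *Nfe2l2* probe from -0.31 to 0.26, *Maff* from -0.026 to 1.36, *Hsp90aa1* from -0.37 to 0.39 and *Hmox1* from -0.23 to 0.30. Under normexp with an offset of 50, where the median of all probes was -0.38, the sign turned for the 4 *Arnt* probes (-0.0087, -0.31, -0.28 and -0.60), *Hsp90ab1* (0.35), *Gsta1* (-0.81), *Rbx1* (0.12), *Srxn1* (-0.0095), *Me1* (-0.999) and *Hmox1* (-0.31). *Hmox1* was -0.023 and *Hsp90aa1* -0.044 with scaling by the median, *Hsp90aa1* was -0.031 in the authors' values and -0.025 under normexp without spots far below their local background, and *Slc7a11* was 0.17 under that same normexp, which moved the median of all probes to 0.15. The cause was not tested. *Ahrr* had no value under the filter for probes well above background on all 4 arrays.

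Over probes, the deviations of arrays with the same replicate number had a correlation of -0.025, and those of arrays on the same slide had 0.025. The deviations of the replicates within a group mirror each other, so both are the same value with the sign turned. This value cannot decide whether arrays belong together by replicate number or by slide. Whether arrays with the same number shared a preparation was not tested. With the replicate number as a block, *Ahr* stayed at 2.54 with a limma adjusted p of 0.339, 0 probes passed the threshold, and 1488 higher and 643 lower had an unadjusted p under 0.05.

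With 2 arrays per group, 1 of them apart from the other 3, limma passed 0 probes, which limits every statement here. By correlation, IEL replicate 2 lay closer to both SPL arrays than to IEL replicate 1. The choice of background correction moved the log2 difference of *Ahrr*, not well above background on SPL replicate 2, from 5.06 to 1.33 or 2.92. That of *Gsta1*, well above background on 3 arrays only, went from 2.73 to -0.81 or 0.90.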
